A study of Homo sapiens with 9 samples.

Results

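The 10 genes described here are 3 D-type cyclins (CCND1, CCND2 and CCND3), both E-type cyclins (CCNE1 and CCNE2), 4 inhibitors of cyclin-dependent kinases (CDKN1A, CDKN1B, CDKN2A and CDKN2B) and the transcription factor MYC. They were taken by symbol from a table of 56609 gene symbols, and all 10 were found with 1 entry each. The cells were MCF10A, an established, non-tumorigenic human breast epithelial line grown with horse serum, EGF, insulin, hydrocortisone and cholera toxin. RNA was sequenced from 3 samples given high calcium (10 mM calcium plus ionomycin, a calcium ionophore, at a labelled 1 mM), 3 samples given TGFb3 (transforming growth factor beta 3, 10 nM) and 3 untreated controls. Both treatments lasted 16 h, and no group analysed here had calcium or ionomycin alone. The labels number the samples of each group but name no separate cultures, so p-values measure only how these samples vary, which may be technical variation. In bulk RNA, fewer cells that express a gene and less of its RNA per cell cannot be told apart.

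In G1, the phase before DNA synthesis, D-type cyclins bind CDK4 and CDK6, and E-type cyclins bind CDK2. These kinases phosphorylate the retinoblastoma protein RB1 and its relatives, which releases E2F factors to switch on the genes of DNA replication. CDKN1A (p21) and CDKN1B (p27) inhibit the cyclin E kinase most strongly, while CDKN2A (p16, and ARF from another reading frame) and CDKN2B (p15) block CDK4 and CDK6. MYC drives growth and ribosome production, and in epithelial cells the growth arrest set off by TGF-beta is known for a fall of MYC and a rise of CDKN1A and CDKN2B. MCF10A is known from other work to have lost the CDKN2A and CDKN2B region of chromosome 9 by deletion.

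Levels are TPM, transcripts per 1000000, which are corrected for gene length and can be set side by side between genes. Differences are of log2(TPM + 1), given with a standard error from a limma fit of all 9 samples, and a gene was called at a Benjamini-Hochberg adjusted p under 0.05 over all 13968 symbols whose mean reached 1 TPM. Both treatments are set against the same 3 controls.

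TGFb3 raised CDKN1A and CCND1 and lowered MYC and CDKN1B, and left both E-type cyclins without a call. High calcium also raised CDKN1A, lowered CCND1, CCNE1 and CCNE2, and had no call for MYC in the TPM as deposited. CDKN2A was listed at 0 in all 9 samples and CDKN2B in 8 of them. Of the 8 genes that passed the filter on low values, 5 were called in high calcium (2 higher and 3 lower), where 63.1% of all tested genes were called, 46.1% higher and 17% lower. In TGFb3 4 were called (2 higher and 2 lower), where 59.6% of all genes were, 26.5% higher and 33.1% lower. Samples without overlap between the groups were found in 69% of all tested genes in high calcium and 63.8% in TGFb3. Counts of called members near those shares say nothing particular about these genes, and their levels and directions are given 1 by 1.

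**Figure D1:**
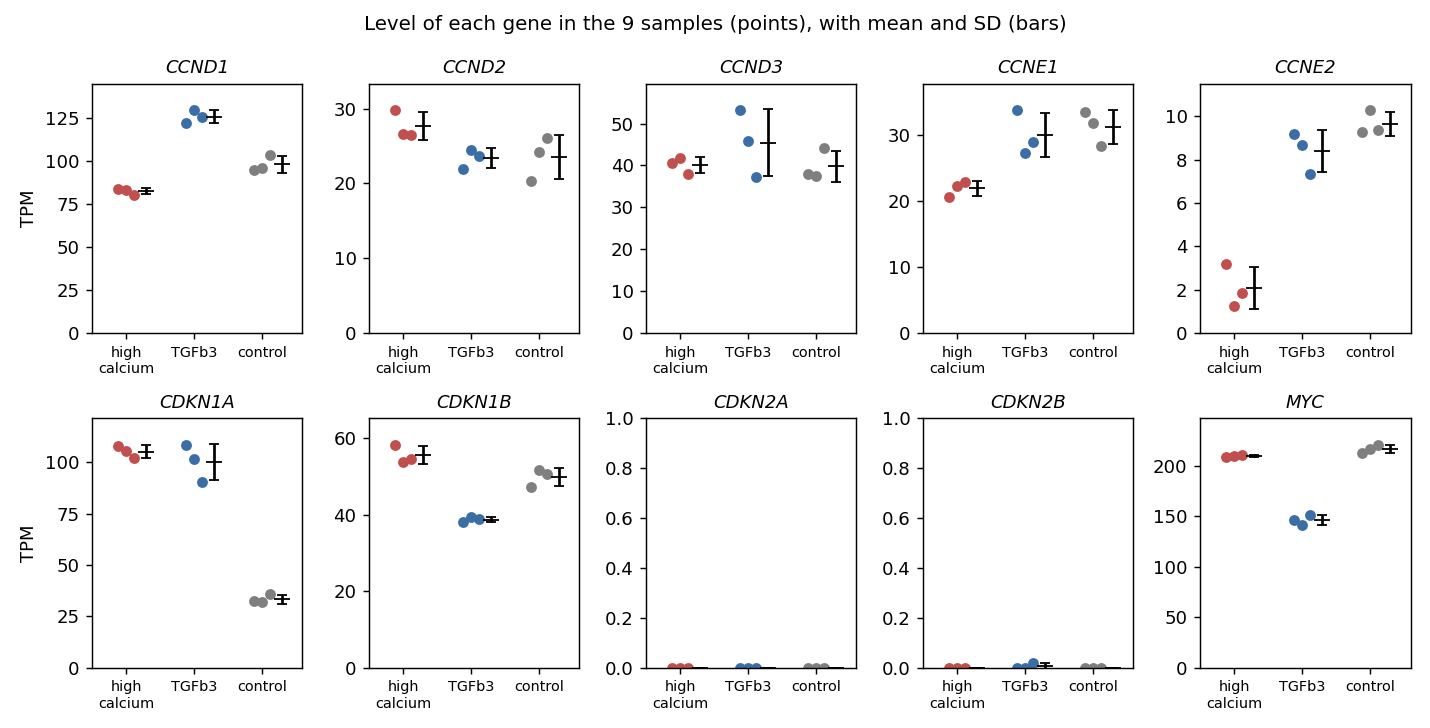
TPM (y axis, from 0, on a separate scale in each panel) of the 10 genes in the 3 high calcium, 3 TGFb3 and 3 control samples (points), with the mean and SD of each group (black). CDKN1A stood at 90.5 to 108 TPM in the 6 treated samples and at 31.8 to 35.9 TPM in the controls, MYC was lowest in TGFb3, CCNE2 was lowest in high calcium, and CDKN2A and CDKN2B lay at or next to 0.

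Facts of the whole libraries bear on every value. Transcripts of the mitochondrial genome made up 11.5 ± 0.371% of TPM in high calcium, 22.7 ± 0.588% in TGFb3 and 22.7 ± 0.914% in the controls (SD, n = 3 each; exact two-sided permutation p against control = 0.1 for high calcium and 0.9 for TGFb3, where 0.1 is the lowest p that 3 against 3 allows). The 13 mitochondrial messenger RNAs alone made up 4.80 to 5.05% in high calcium, 20.5 to 21.6% in TGFb3 and 20.5 to 22.3% in the controls. MALAT1, a noncoding RNA taken as a check of RNA quality, was at 424 ± 32.2, 204 ± 12.4 and 158 ± 44.7 TPM in the same order. TPM sums to a fixed total, and over all tested genes the log2 difference had a median of 0.22 in high calcium and -0.06 in TGFb3. In high calcium 6438 genes were called higher and 2378 lower in the TPM as deposited, against 4210 and 4182 after median ratio rescaling, 3969 and 4458 after quantile normalisation and 4649 and 3791 with mitochondrial genes left out, so a high calcium difference depends on the scaling. Values of single genes outside the 10 are from the TPM as deposited, and lists are also counted after median ratio rescaling. The 10 markers of basal breast epithelium, KRT5 and TP63 among them, all reached 1 TPM and summed to 7236 to 7540 TPM in high calcium, 6682 to 7727 TPM in TGFb3 and 3795 to 4028 TPM in the controls. Of the 7 markers of hormone-sensing luminal cells 4 reached 1 TPM, with sums of 947 to 987, 499 to 554 and 486 to 588 TPM in the same order. Nearly all of these sums came from KRT8 (means of 487, 283 and 189 TPM) and KRT18 (460, 235 and 335 TPM). The hormone receptor gene ESR1 reached at most 0.172 TPM and PGR was at 0. The 7 fibroblast markers summed to 9.99 to 12.6 TPM in high calcium, 28.5 to 32.0 TPM in TGFb3 and 2.602 to 3.515 TPM in the controls, 2 of them (COL1A1 and DCN) reaching 1 TPM, with COL1A2 at 0. Of 5 leukocyte markers CD68 alone reached 1 TPM (sums of 13.9 to 37.4, 8.44 to 13.6 and 1.45 to 3.00 TPM), and PTPRC and CD3E were at 0 in all 9 samples. Of 4 endothelial markers KDR alone did (6.96 to 7.20, 1.54 to 2.13 and 3.81 to 4.51 TPM) with CDH5 at 0, and the 3 adipocyte markers summed to at most 0.858 TPM in any sample with ADIPOQ at 0. The part of these shifts in the results that follow was not tested.

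The D-type cyclins carry growth factor signals to CDK4 and CDK6. CCND1 (chromosome 11, 69641087 to 69654474, plus strand) was the most abundant of them in every sample. It was at 83.7, 83.0 and 80.5 TPM in the high calcium samples, at 122, 129.5 and 125.5 TPM in the TGFb3 samples and at 94.6, 96.2 and 104 TPM in the controls. The 3 groups did not overlap, with high calcium lowest and TGFb3 highest. CCND1 fell in high calcium by a log2 of 0.25 ± 0.045, a change of -15.8% of TPM + 1 (adjusted p = 0.000815, limma). It rose in TGFb3 by a log2 of 0.35 ± 0.045, a change of 27.8% (adjusted p = 7.59e-05). Both calls held under all 20 alternatives, in which the log2 difference ran from -0.49 to -0.21 in high calcium and from 0.33 to 0.40 in TGFb3. An opposite-strand gene, ORAOV1, shares exon sequence with CCND1 and averaged 15.5 TPM in high calcium, 13.7 TPM in TGFb3 and 11.1 TPM in the controls. Whether the libraries keep strand is not given in the sources used here, so reads from the shared stretch cannot be told apart.

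CCND2 (chromosome 12, 4273772 to 4305350, plus strand) was the least abundant D-type cyclin in every sample. It was at 29.8, 26.65 and 26.45 TPM in high calcium, at 21.9, 24.5 and 23.7 TPM in TGFb3 and at 20.4, 24.1 and 26.1 TPM in the controls. The high calcium samples lay just above the highest control, and the TGFb3 samples lay within the range of the controls. The log2 difference was 0.23 ± 0.091 in high calcium (adjusted p = 0.0511), which is close to the median of all genes, and -0.005 ± 0.091 in TGFb3 (adjusted p = 0.966, 95% interval -0.21 to 0.20). CCND2 was called in high calcium without control 3 (log2 0.30, adjusted p = 0.0166) and with a minimum mean of 5 TPM (adjusted p = 0.0453), and its log2 difference after median ratio rescaling was -0.0047.

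CCND3 (chromosome 6, 41934933 to 42050357, minus strand) was at 40.6, 41.9 and 38.0 TPM in high calcium, at 53.1, 45.9 and 37.3 TPM in TGFb3 and at 37.8, 37.4 and 44.1 TPM in the controls. All 3 groups overlapped, and the TGFb3 samples were the most spread of any group for any D-type cyclin, with a coefficient of variation of 17.4%. The log2 difference was 0.02 ± 0.114 in high calcium (adjusted p = 0.904, 95% interval -0.24 to 0.27) and 0.18 ± 0.114 in TGFb3 (adjusted p = 0.206, 95% interval -0.08 to 0.43). Without TGFb3 3, the lowest TGFb3 sample, CCND3 was called higher in TGFb3 (log2 0.31, adjusted p = 0.0165).

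The 3 D-type cyclins together came to 150 ± 4.70 TPM in high calcium, 194 ± 7.01 TPM in TGFb3 and 161 ± 11 TPM in the controls. CCND1 made up 54.9 ± 0.600% of that sum in high calcium, 64.7 ± 2.68% in TGFb3 and 60.8 ± 1.15% in the controls. CCND2 made up 18.4 ± 0.874% in high calcium, 12 ± 0.831% in TGFb3 and 14.6 ± 1.07% in the controls. The groups did not overlap in either share, though the lowest TGFb3 share of CCND1 (61.92%) lay next to the highest control share (61.91%). Shares of a sum are tied to each other. The lower CCND2 share in TGFb3 therefore does not show a lower CCND2, whose log2 difference from control there was -0.005. CCND3 held 26.7 ± 0.767%, 23.3 ± 3.5% and 24.6 ± 0.836% in the same order of groups.

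E-type cyclins bind CDK2 at the start of DNA replication, and both are textbook targets of E2F. CCNE1 (chromosome 19, 29811898 to 29824308, plus strand) was at 20.6, 22.2 and 22.8 TPM in high calcium, at 33.65, 27.2 and 28.9 TPM in TGFb3 and at 33.4, 31.7 and 28.3 TPM in the controls. The high calcium samples lay below all others, and the TGFb3 and control samples overlapped. CCNE1 fell in high calcium by a log2 of 0.49 ± 0.088 (-28.7% of TPM + 1, adjusted p = 0.000795), and was called lower under all 20 alternatives. Its log2 difference in TGFb3 was -0.06 ± 0.088 (adjusted p = 0.593, 95% interval -0.25 to 0.14).

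CCNE2 (chromosome 8, minus strand) was at 3.17, 1.26 and 1.84 TPM in high calcium, at 9.19, 8.68 and 7.31 TPM in TGFb3 and at 9.28, 10.3 and 9.36 TPM in the controls. The high calcium samples were far below both other groups, and the highest TGFb3 sample lay just below the lowest control. CCNE2 fell in high calcium by a log2 of 1.83 ± 0.193 (-71.9% of TPM + 1, adjusted p = 1.98e-05), called under all 20 alternatives with values from -2.25 to -1.63. In TGFb3 its log2 difference was -0.18 ± 0.193 (adjusted p = 0.439, 95% interval -0.62 to 0.25). Exons of INTS8, on the opposite strand, overlap those of CCNE2, and INTS8 averaged 35.2 TPM in high calcium, 34.7 TPM in TGFb3 and 38.1 TPM in the controls. CCNE1 made up 91.3 ± 4.13% of both E-type cyclins in high calcium, 78.0 ± 2.04% in TGFb3 and 76.3 ± 1.71% in the controls, while their sum was 24 ± 0.597, 38.3 ± 3.95 and 40.8 ± 2.74 TPM in the same order.

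**Figure D2:**
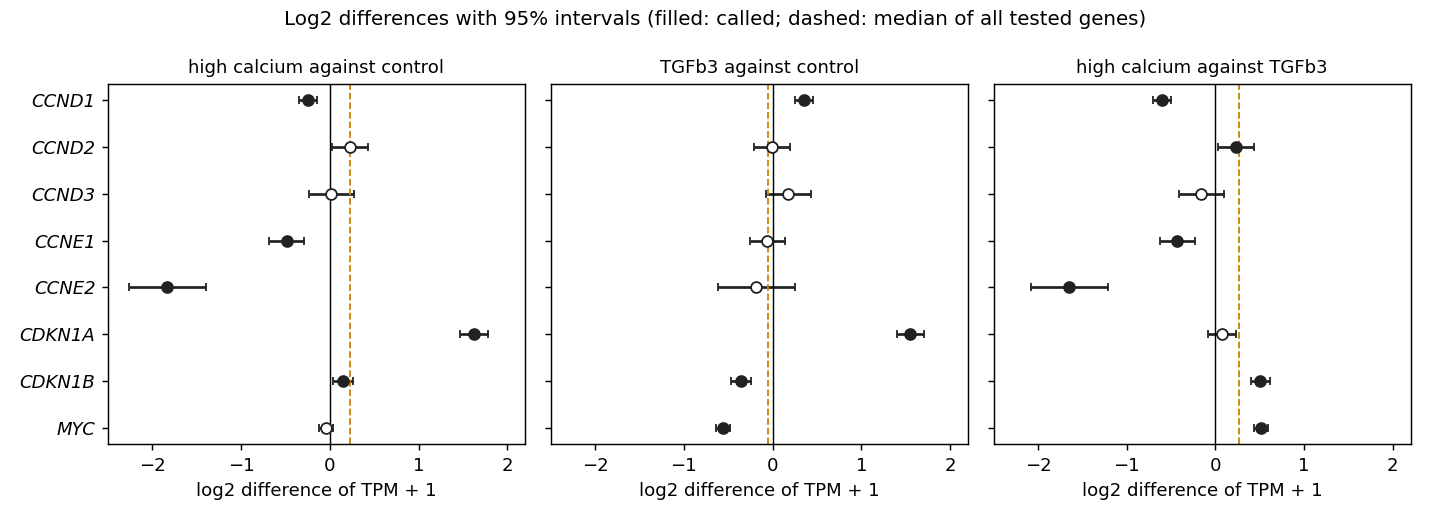
Log2 difference of TPM + 1 (x axis) with its 95% interval for the 8 genes that passed the filter, in the 3 comparisons: each treatment set against control, and high calcium set against TGFb3. Filled points were called, open points were not, and the dashed line is the median of all tested genes. CDKN1A lay at 1.63 and 1.55 against the control, and CCND1 lay on opposite sides of 0; the CDKN1B difference in high calcium turned below 0 under 3 other scalings.

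CDKN1A (chromosome 6, 36676460 to 36687339, plus strand) encodes p21, an inhibitor of CDK2 and a known target of SMAD factors. It was at 108, 105.5 and 102 TPM in high calcium, at 108, 101 and 90.5 TPM in TGFb3 and at 32.6, 31.8 and 35.9 TPM in the controls. The ranges of the treatments overlapped each other, and every treated sample was far above every control. CDKN1A rose in high calcium by a log2 of 1.63 ± 0.069, a 3.09-fold change of TPM + 1 (adjusted p = 3.36e-08), at percentile 96.9 of all tested genes. It rose in TGFb3 by a log2 of 1.55 ± 0.069, a 2.93-fold change (adjusted p = 5.42e-08). Both calls held under all 20 alternatives. Another annotated gene, DINOL, shares exon sequence with CDKN1A, and no level of it was obtained here. Reads from the shared stretch cannot be told apart.

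CDKN1B (chromosome 12, 12715058 to 12722371, plus strand) encodes p27, the other CDK2 inhibitor of the set, whose protein is set largely by its breakdown through SKP2. It was at 58.1, 53.7 and 54.6 TPM in high calcium, at 38.0, 39.3 and 38.7 TPM in TGFb3 and at 47.3, 51.75 and 50.6 TPM in the controls. TGFb3 samples lay below all controls and high calcium samples above them. CDKN1B fell in TGFb3 by a log2 of 0.36 ± 0.050 (-22.0% of TPM + 1, adjusted p = 0.000145), called under all 20 alternatives. In high calcium its log2 difference was 0.15 ± 0.050 (adjusted p = 0.0239), below the median of all genes. That call was lost without control 1 (adjusted p = 0.0902) or high calcium 1 (0.099), and the difference turned to -0.09 after median ratio rescaling, -0.03 after quantile normalisation and -0.04 with mitochondrial genes left out, with no call under these 3.

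The promoter windows of CDKN1A and CDKN1B, the inhibitors that both treatments or TGFb3 moved, and of CCNE1, the more abundant E-type cyclin, are printed to show how their start regions differ. Their starts lie inside the gene bounds given above. Each window runs from 250 bases before to 50 bases after the RefSeq start (GRCh38.p14) on the plus strand. Capitals mark the GC box GGGCGG, the letters bound by SP1 and its relatives, in CDKN1A and CCNE1, and the letters CCAAT in CDKN1B, each read on both strands.
CDKN1A, chr6:36678464-36678763: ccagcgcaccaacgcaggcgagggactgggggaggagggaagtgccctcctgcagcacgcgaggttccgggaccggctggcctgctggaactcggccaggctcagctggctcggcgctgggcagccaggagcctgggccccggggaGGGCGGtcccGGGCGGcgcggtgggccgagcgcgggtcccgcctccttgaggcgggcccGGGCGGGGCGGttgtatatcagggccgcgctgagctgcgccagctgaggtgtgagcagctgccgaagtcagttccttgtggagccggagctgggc
CDKN1B, chr12:12717118-12717417: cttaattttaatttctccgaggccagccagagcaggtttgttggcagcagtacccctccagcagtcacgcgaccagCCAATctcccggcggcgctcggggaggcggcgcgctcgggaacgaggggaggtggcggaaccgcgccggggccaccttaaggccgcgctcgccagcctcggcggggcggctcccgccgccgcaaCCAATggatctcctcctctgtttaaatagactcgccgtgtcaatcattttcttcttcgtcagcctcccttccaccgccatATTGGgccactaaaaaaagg
CCNE1, chr19:29811741-29812040: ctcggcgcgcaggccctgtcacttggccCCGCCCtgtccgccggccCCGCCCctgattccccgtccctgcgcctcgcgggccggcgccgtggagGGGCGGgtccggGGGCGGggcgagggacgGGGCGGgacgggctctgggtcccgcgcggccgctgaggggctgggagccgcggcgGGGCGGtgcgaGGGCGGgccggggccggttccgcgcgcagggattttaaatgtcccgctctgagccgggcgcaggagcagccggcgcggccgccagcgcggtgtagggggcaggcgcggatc
The GC box occurred 4 times in the CDKN1A window (2 of them overlapping by 1 base), 7 times in the CCNE1 window and 1 time in the CDKN1B window, and it is in 45.0% of all 35116 windows of this length. CCAAT occurred 3 times in the CDKN1B window and 0 times in the other two, against 34.6% of all windows. The E2F letters TTTGGCGC, TTTCCCGC, TTTCGCGC and TTTGCCGC, found in 3.31% of all windows, and the SMAD letters CAGAC, found in 45.3%, were not in any of the 3 windows on either strand. Matches are a description of letters and say nothing about which factors act there.

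CDKN2A (chromosome 9, 21967753 to 21995301, minus strand) was listed at 0 TPM in all 9 samples. CDKN2B (chromosome 9, 22002903 to 22009363, minus strand) was listed at 0 TPM in the 3 high calcium samples, 2 TGFb3 samples and 3 controls, and at 0.0205 TPM in TGFb3 3. Neither passed the filter, so neither was tested. The antisense gene CDKN2B-AS1, which overlaps both, was also listed at 0 in all samples. CDKN2B is a textbook TGF-beta target in epithelium, and here its highest value in the TGFb3 samples was 0.0205 TPM.

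Several protein-coding genes on both sides of this stretch had RNA, as the plot of genes around CDKN2A and CDKN2B shows. Others there did not: HACD4, on the side of MTAP, and IZUMO3, on the other side, were listed at 0 in all 9 samples. On the side of MTAP, KLHL9 averaged 46.9 TPM in high calcium, 42.9 TPM in TGFb3 and 40.8 TPM in the controls, and FOCAD 52.6, 52.2 and 34.98 TPM in the same order. On the other side, ELAVL2 averaged 8.45 TPM in high calcium, 9.45 TPM in TGFb3 and 19.7 TPM in the controls, and CAAP1 72.4, 41.6 and 73.4 TPM. The closest genes were low. MTAP, a housekeeping enzyme of methionine salvage, was at 0.871, 1.07 and 1.11 TPM in high calcium, at 0.857, 0.457 and 1.22 TPM in TGFb3 and at 0.0360, 0.0569 and 0.0496 TPM in the controls. All 6 treated samples were thus above the 3 controls, all at a level near or under 1 TPM, and MTAP did not pass the filter. DMRTA1, next on the other side, was at 0.317 to 0.666 TPM in the 9 samples. Of 16 interferon genes in the interval 13 were at 0 in all samples, and IFNE, the nearest to MTAP, averaged 1.89 TPM in high calcium, 5.12 TPM in TGFb3 and 1.27 TPM in the controls.

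**Figure D3:**
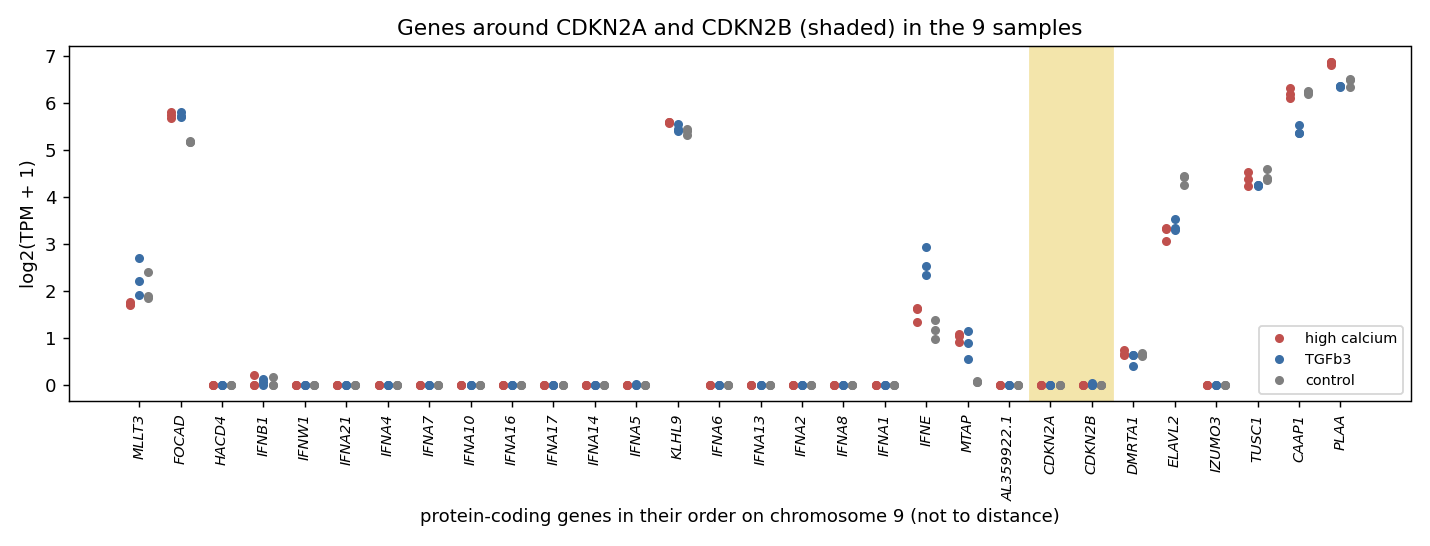
Level as log2(TPM + 1) (y axis) of 30 protein-coding genes in their order on chromosome 9 (x axis, evenly spaced), with 1 point per sample for high calcium, TGFb3 and control. CDKN2A and CDKN2B (shaded) lay at 0 apart from 0.0205 TPM of CDKN2B in TGFb3 3, MTAP reached at most 1.22 TPM, and KLHL9, TUSC1, CAAP1 and PLAA had RNA in all samples.

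MYC (chromosome 8, plus strand) was the most abundant of the 10 genes in every sample. It was at 208, 209.6 and 211 TPM in high calcium, at 146, 142 and 151 TPM in TGFb3 and at 213, 216 and 220.5 TPM in the controls. The TGFb3 samples lay far below all others, and the high calcium samples lay just below the lowest control. MYC fell in TGFb3 by a log2 of 0.56 ± 0.035 (-32.3% of TPM + 1, adjusted p = 4.95e-07), called under all 20 alternatives with values from -0.59 to -0.51. In high calcium its log2 difference was -0.05 ± 0.035 (adjusted p = 0.28, 95% interval -0.13 to 0.03), which lay 0.27 below the median of all genes. It was called lower in high calcium after median ratio rescaling (log2 -0.29, adjusted p = 5.37e-05), after quantile normalisation (-0.16, 0.00381) and with mitochondrial genes left out (-0.24, 0.000224).

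**Figure D4:**
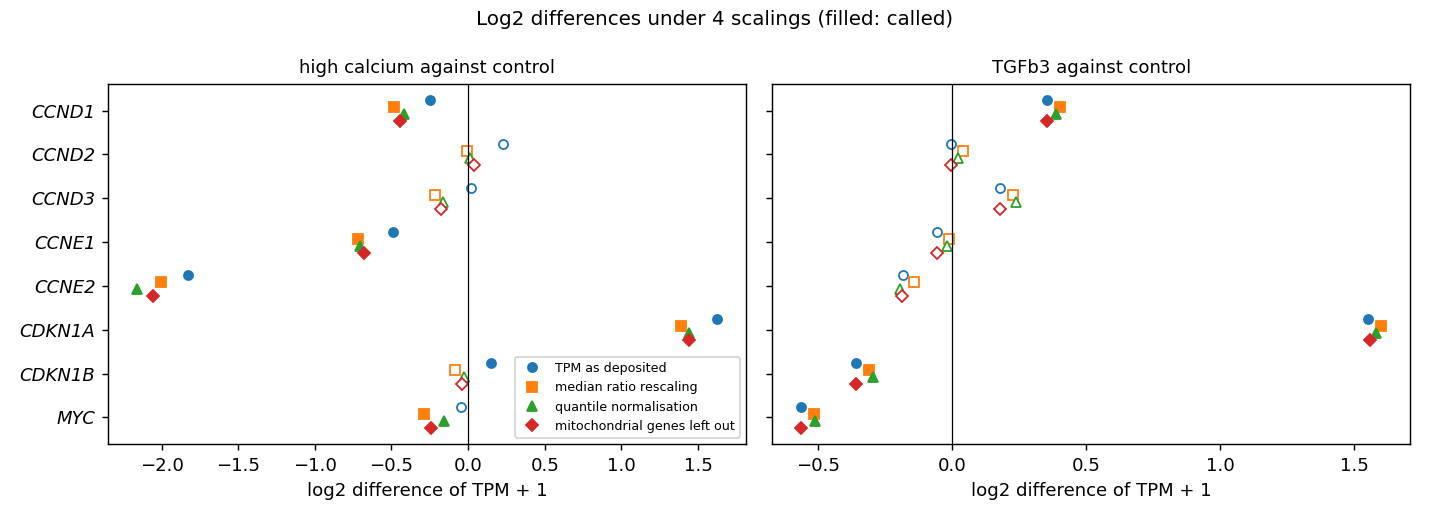
Log2 difference of TPM + 1 (x axis) of the 8 tested genes in high calcium and in TGFb3 against control, in the TPM as deposited and under 3 other scalings (filled: called). In high calcium CDKN1B lay at 0.15 as deposited and below 0 under the other 3, and MYC was called under those 3 only; CDKN1A, CCND1, CCNE1 and CCNE2 kept direction and call, and in TGFb3 the calls were the same under all 4.

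High calcium and TGFb3 were also set directly against each other, where 6 of these 8 genes were called, 3 higher and 3 lower. Of all tested genes 66.5% were called, 50.4% higher and 16.2% lower, 71.2% had groups that did not overlap, and the median log2 difference was 0.27. In genes, 7038 were called higher and 2256 lower, against 4183 and 4226 after median ratio rescaling. CCND1 was lower in high calcium than in TGFb3 by a log2 difference of -0.60 ± 0.045 (adjusted p = 1.48e-06), CCNE1 by -0.43 ± 0.088 (adjusted p = 0.00163) and CCNE2 by -1.65 ± 0.193 (adjusted p = 3.73e-05). CDKN1B was higher in high calcium by 0.51 ± 0.050 (adjusted p = 1.06e-05) and MYC by 0.52 ± 0.035 (adjusted p = 7.93e-07). In these 5 genes the samples did not overlap and the calls held under all 20 alternatives, but the sizes moved with the scaling. After median ratio rescaling the difference was 0.23 for both CDKN1B and MYC, -0.71 for CCNE1, -0.89 for CCND1 and -1.86 for CCNE2. CCND2 differed by 0.23 ± 0.091 (adjusted p = 0.0446), a call held under 7 of 20 alternatives and turned to -0.046 after median ratio rescaling. CDKN1A differed by 0.07 ± 0.069 (adjusted p = 0.367, 95% interval -0.08 to 0.23), and after median ratio rescaling it was called lower in high calcium (log2 -0.21, adjusted p = 0.0181). CCND3 differed by -0.16 ± 0.114 (adjusted p = 0.238) and was called lower in high calcium under the 3 other scalings (log2 -0.44, -0.40 and -0.35) and without TGFb3 3 (log2 -0.29).

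The kinases and other inhibitors of the pathway come from gene lists made from general knowledge. These lists, and those below, were chosen with earlier results of these data known, so their counts are a description. Of all tested genes, 46.1% were called higher and 17% lower in high calcium, and 26.5% higher and 33.1% lower in TGFb3. The list counts here and below are to be read beside these shares. Of 8 CDK partners and activators of G1, 1 rose and 3 fell in high calcium (1 and 6 after median ratio rescaling) and 1 rose and 4 fell in TGFb3 (1 and 4), with list medians of -0.155 and -0.185 on the log2 scale beside 0.22 and -0.06 for all genes. CDK2, the partner of cyclin E, fell in high calcium to 38.5 ± 1.05 TPM, against 68.7 ± 1.49 TPM in the controls, and was at 67.6 ± 0.838 TPM in TGFb3 (adjusted p = 8.74e-08 and 0.641). CDK4 fell in both, to 57.5 ± 5.80 TPM in high calcium and 38.1 ± 2.47 TPM in TGFb3, against 79.4 ± 2.77 TPM in the controls (adjusted p = 0.000354 and 1.14e-06). CDK6, its relative, rose in TGFb3 to 62.3 ± 4.94 TPM, against 29.4 ± 3.39 TPM in the controls (adjusted p = 1.96e-06), and was at 27.3 ± 0.430 TPM in high calcium (adjusted p = 0.33). CDC25A, the phosphatase that activates CDK2, fell in both (log2 -1.27 in high calcium and -1.15 in TGFb3). All 3 further CDK inhibitors were called in both treatments: CDKN1C (p57) and CDKN2D (p19) rose and CDKN2C (p18) fell. CDKN1C was at 17.8 ± 1.89 TPM in high calcium, 19.3 ± 2.15 TPM in TGFb3 and 8.31 ± 0.975 TPM in the controls.

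Downstream of the kinases, RB1 was at 62.8 ± 1.52 TPM in high calcium, 67.0 ± 3.79 TPM in TGFb3 and 62.6 ± 1.94 TPM in the controls (adjusted p = 0.95 and 0.127), while its relative RBL1 fell in both (log2 -1.25 in high calcium and -0.60 in TGFb3). Of the 3 pocket proteins 1 rose and 1 fell in high calcium (0 and 2 after median ratio rescaling), and 0 rose and 1 fell in TGFb3 (1 and 1). Of 10 E2F and DP factors, 1 rose and 6 fell in high calcium (1 and 9 after median ratio rescaling) and 0 rose and 8 fell in TGFb3 (0 and 7). E2F1 was at 4.39 ± 0.511 TPM in high calcium, 6.42 ± 0.693 TPM in TGFb3 and 11.7 ± 0.871 TPM in the controls (adjusted p = 4.51e-06 and 0.000132). E2F5 rose in high calcium (log2 0.56) and fell in TGFb3 (log2 -1.49). All 20 E2F-driven genes of the G1/S transition fell in both treatments, also after median ratio rescaling, with medians of -1.705 in high calcium and -1.04 in TGFb3. CCNA2, the cyclin of S phase, was at 86.3 ± 0.257 TPM in high calcium, 95.9 ± 5.43 TPM in TGFb3 and 188 ± 6.42 TPM in the controls. In TGFb3 the 20 genes ran from -1.43 for MCM2, a subunit of the replicative helicase, to -0.36 for MYBL2, a cell cycle transcription factor. The TGFb3 differences of CCNE1 (-0.06) and CCNE2 (-0.18) had no call. The interval of CCNE1, -0.255 to 0.139, lay above the value of the smallest of those falls, that of MYBL2 (-0.362 ± 0.0614). MYBL2 has an error of its own, and no test set these genes against each other. The interval of CCNE2 given above, -0.62 to 0.25, takes in the lesser falls of that list. It rests on a spread shared with high calcium, and with only the compared groups fitted the standard error was 0.104 instead of 0.193. SKP2, the ubiquitin ligase subunit that recognises p27, fell in both (log2 -0.97 in high calcium and -1.23 in TGFb3), as did its cofactor CKS1B (log2 -0.52 and -0.91). Of the 9 ubiquitin ligase parts 2 rose and 3 fell in high calcium (1 and 4 after median ratio rescaling), and 0 rose and 3 fell in TGFb3 (0 and 3).

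**Figure D5:**
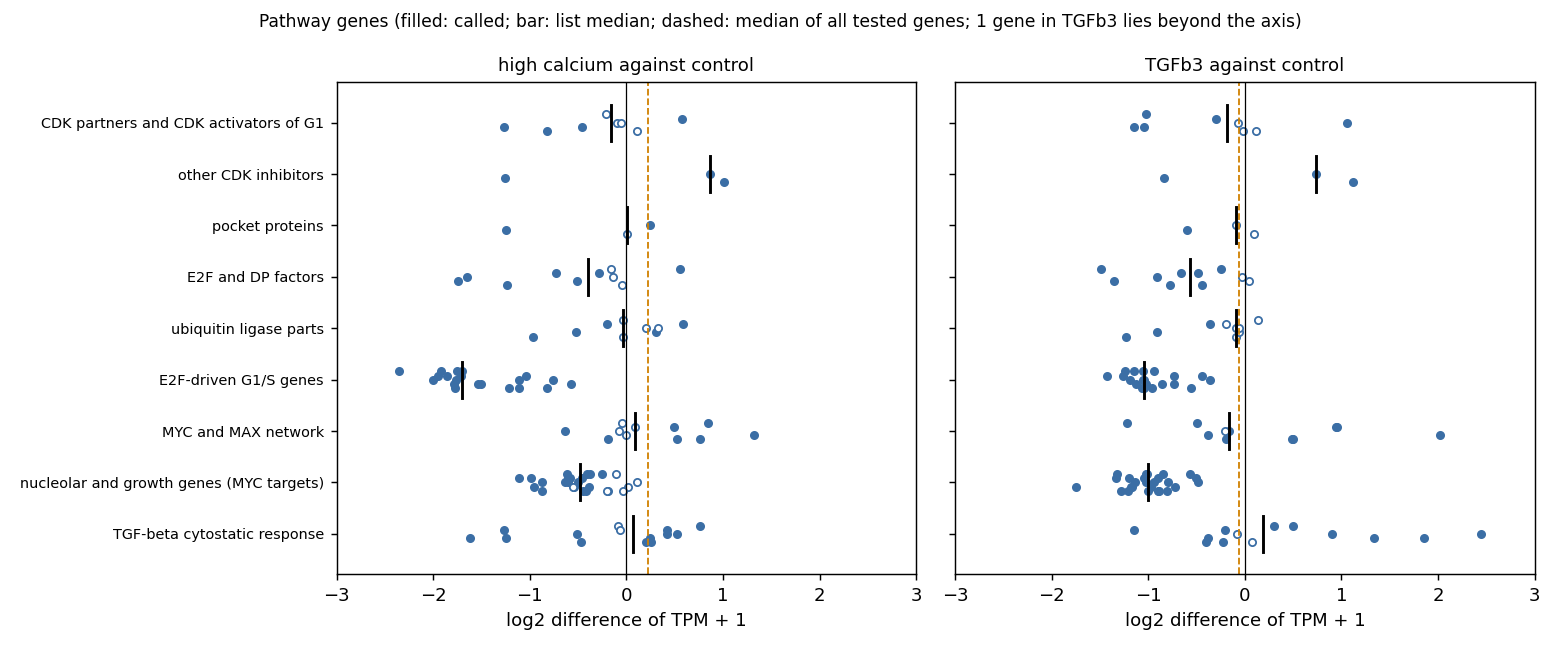
Log2 difference of TPM + 1 (x axis) of each tested gene of 9 pathway lists in high calcium and TGFb3 against control (filled: called; black bar: list median; dashed line: median of all tested genes; 1 gene of the TGF-beta list lies beyond the axis in TGFb3). The E2F-driven genes all lay below 0 in both treatments, and the nucleolar and growth genes lay lower in TGFb3 (median -1.003) than in high calcium (median -0.48).

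Around MYC, the lists hold its partners and genes commonly named as its targets. Of 26 nucleolar and growth genes, 0 rose and 20 fell in high calcium (0 and 25 after median ratio rescaling) and all 26 fell in TGFb3 (26 after rescaling), with medians of -0.48 and -1.003. Set against TGFb3, high calcium was higher in 22 of them and lower in 1, or 15 and 3 after median ratio rescaling. In that comparison 50.4% of all tested genes were called higher and 16.2% lower. NOP56, a nucleolar protein, was at 188 ± 14.8 TPM in high calcium, 162 ± 26.4 TPM in TGFb3 and 405.5 ± 17.5 TPM in the controls, and POLR1B, a subunit of RNA polymerase I, at 56.6 ± 3.16, 26.4 ± 1.04 and 67.3 ± 2.33 TPM in the same order. Of the 11 tested genes of the MYC and MAX network 5 rose and 2 fell in high calcium (5 and 4 after median ratio rescaling), and 5 rose and 5 fell in TGFb3 (5 and 3). Among all tested genes 46.1% rose and 17% fell in high calcium, and 26.5% rose and 33.1% fell in TGFb3. The list medians were 0.085 and -0.164 on the log2 scale, beside 0.22 and -0.06 for all genes. MXD1, which competes with MYC for MAX, rose in both treatments and was at 35.3 ± 1.16 TPM in high calcium, 58.0 ± 2.01 TPM in TGFb3 and 13.6 ± 0.782 TPM in the controls (adjusted p = 3.49e-08 and 2.99e-09). MXI1, of the same family, fell in TGFb3 to 11.97 ± 1.10 TPM, against 29.15 ± 0.833 TPM in the controls (adjusted p = 1.89e-07), and was at 28.2 ± 0.267 TPM in high calcium (adjusted p = 0.565). MYCN was listed at 0 in all samples.

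CDKN1A is also among the genes by which TGF-beta signalling is known to stop growth. Of 14 other genes of that growth arrest, 7 rose and 5 fell in high calcium (4 and 7 after median ratio rescaling) and 7 rose and 5 fell in TGFb3 (7 and 5). Among all tested genes 46.1% rose and 17% fell in high calcium, and 26.5% rose and 33.1% fell in TGFb3. The list medians were 0.067 and 0.185 on the log2 scale, beside 0.22 and -0.06 for all genes. SMAD7, the feedback inhibitor of the pathway, rose in TGFb3 to 16.3 ± 0.929 TPM, against 3.79 ± 0.218 TPM in the controls, and SKIL to 115.5 ± 9.61 TPM, against 20.6 ± 3.41 TPM. ID1, a factor that holds back differentiation, was at 277 ± 5.08 TPM in high calcium, 291 ± 13.7 TPM in TGFb3 and 385.5 ± 9.36 TPM in the controls (adjusted p = 4.99e-06 and 1.63e-05). Its relatives in that list differed. ID2 fell in both treatments (log2 -1.62 in high calcium and -0.38 in TGFb3). ID3 fell in high calcium (log2 -0.51) but rose in TGFb3, to 96.3 ± 5.81 TPM, against 51.25 ± 4.07 TPM in the controls.

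To place each pattern among other genes, the 9 log2 values of a gene were centred on their mean and compared by root mean square distance with the symbols of at least 10 TPM on average, 8710 besides the gene itself for all but CCNE2 (8711). The nearest to MYC were ARL2BP (distance 0.0244) and EML4 (0.033), both lower in TGFb3 than in the controls, ARL2BP with means of 121 TPM in high calcium, 83.7 TPM in TGFb3 and 123 TPM in the controls. CDKN1B lay nearest to CDC42SE2 (0.0325) and MTX2 (0.0334). CDKN1A lay close to IGFL2-AS1 (0.0853), with means of 32.0 TPM in high calcium, 30.9 TPM in TGFb3 and 10.3 TPM in the controls. CCND1 lay nearest to CHD3 (0.0455) and ARPC1A (0.0485), and CCNE1 to PSMC3 (0.0727) and SP110 (0.0738). CCNE2 had no close neighbour on this scale, ID2 being nearest at 0.229. CCND2 lay close to DHX40 (0.0657), and CCND3 lay nearest to RAB1B (0.0578).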

How the data were processed

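The authors deposited 1 table of TPM for 58288 entries in 9 samples, each column summing to 1000000. Trizol RNA was sequenced in pairs of 101 bp reads, per the labels' protocols. The submitters' processing notes name HISAT2 and hg38. For the program behind TPM, the annotation and the strandedness, nothing is stated in those sources. TPM keeps no depth, so depth is unknown and no counting interval is given. Columns were matched to samples by label, with 0 left unmapped.

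Entries sharing a symbol were summed. Values were tested as log2(TPM + 1) for symbols whose mean reached 1 TPM, with limma 3.58.1 in R 4.3.3 (3 groups, all 9 samples, empirical Bayes with a trend), after a test on simulated data. Adjusted p-values are Benjamini-Hochberg over all 13968 symbols. A fold on this scale understates changes of low genes. Coordinates, 1-based, are from GENCODE release 29 (hg38), and promoters from RefSeq. Named genes are all 10 members, up to 3 called genes per list, direction and comparison with at least 5 TPM, and a few fixed genes. ID3 was added because it went the other way from ID1 in TGFb3. The members and lists were chosen with earlier results of these data known. Python 3.11.15, pandas 2.3.3 and matplotlib 3.10.9 made tables and figures. The 20 alternatives changed the pseudocount, filter, scaling, groups fitted, variance trend, shared entries or replicate block, or left out 1 sample. For the members, only the pseudocount, the scaling and leaving out a sample of a compared group can move the log2 difference. The others bear on the call alone, so a call held under all 20 is less than 20 separate checks. A few genes of the lists and comparisons are not reported here.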

Additional observations from a re-analysis of the deposited data

How the results depend on the processing

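Of 24 log2 differences (8 genes, 3 comparisons), 239 values over the 11 alternatives that keep all samples kept direction and call and 14 changed sign, some of them with a change of call. Of those that kept their sign, 4 lost the call and 7 gained it. Changing the filter, groups fitted, variance trend, shared entries or replicate block left each member's log2 difference itself unchanged. Under those settings direction could not change, only the call, so many of the 239 were bound to keep direction. The total counts of genes and of members called stayed within 1.5 times their value under all 20, but counts by direction did not. In high calcium against control the genes called higher went down to 3969 (6438 as deposited) and those called lower up to 4458 (2378), both after quantile normalisation, and 1 member was higher and 4 lower under each of the 3 other scalings (2 and 3 as deposited). In high calcium against control, median ratio rescaling, quantile normalisation and leaving out mitochondrial genes gave CCND3 -0.22, -0.16 and -0.17, CDKN1B -0.086, -0.026 and -0.042, and MYC -0.29, -0.16 and -0.24. CCND2 was -0.0047 after median ratio rescaling and 0.23, called, with a minimum of 5 TPM. In TGFb3 against control CCND2 was 0.042 (median ratio) and 0.020 (quantile). In high calcium against TGFb3 the same 3 scalings gave CDKN1A -0.21, -0.14 and -0.12, CCND3 -0.44, -0.40 and -0.35, and CCND2 -0.046, -0.0045 and 0.043. CCND2 there kept 0.23 but lost its call with no filter, with no variance trend and with the replicate block (adjusted p = 0.0633, limma). The causes were not tested, beyond the shift of all genes that the scalings remove.

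Leaving out 1 sample at a time gave ranges, for high calcium against control, of 0.13 to 0.30 for CCND2, -0.024 to 0.092 for CCND3 and 0.11 to 0.18 for CDKN1B. For TGFb3 against control the ranges were -0.10 to 0.070 for CCND2, 0.060 to 0.31 for CCND3 and -0.14 to 0.0056 for CCNE1. For high calcium against TGFb3 they were 0.18 to 0.27 for CCND2 and -0.29 to -0.043 for CCND3, where CCND2 was called only without control 1 or control 3.

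Samples with the same replicate number did not deviate together (correlations of -0.0747 to -0.0037 over 9 pairs, and -0.0345 to 0.0896 over 18 pairs of other numbers). The deviations of the 3 samples of a group sum to 0, which ties these correlations to each other. Whether same-numbered samples shared a day or a culture cannot be decided from them. With the replicate block 8557, 8044 and 9118 genes were called in the 3 comparisons, against 8816, 8326 and 9294 without it. With TPM alone, what depth limits is unknown.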
